A study of Mus musculus with 34 samples.

Results

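H3K9me3 is a histone mark of heterochromatin, and 61 genomic regions were selected for carrying more of it wherever a mouse embryonic stem cell line held the DBA/2J (D2) version of a chromosome 13 segment, on either of 2 strain backgrounds. They were drawn from 248336 regions counted in the study, of which 229016 lie off chromosomes 13, X and Y, so every selected region is on another chromosome than the segment. The selection used the repeated H3K9me3 libraries. A region entered when its mean level was at least 8 CPM (reads per region scaled to a library total of 1000000) in B6-13D2 and in D2, and when each of these means was at least 2.5 times the mean plus 0.5 CPM in C57BL/6J (B6) and in D2-13B6. The H3K9me3 levels of those libraries are therefore given only as a description.

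B6-13D2, with the strain name B6.D2-(rs30079041-rs51756099)/Bakr, is a congenic line with the D2 segment in an otherwise B6 genome. D2-13B6 is its reciprocal, D2 except for the B6 segment. The labels name this line D2.B6-(rs29224292-rs13469455)/Bakr, whereas the series description gives rs51756099 as its end marker. The repeated libraries are technical replicates of 1 line per genotype, B6 5-1, D2 5-5, QJ 6-1 (B6-13D2) and XE 2-4 (D2-13B6), so they compare lines and not genotypes. For H3K9me3 there are 3 libraries each of B6 and D2-13B6 and 2 each of the other lines, and for H3K27ac every line has 3. A separate series holds 3 B6 lines (4-1, 4-4 and 5-1) and 3 D2 lines (2-9, 5-5 and 203) with 1 library per line and mark. The lines B6 5-1 and D2 5-5 occur in both series. All cells were cultured with serum, LIF, the MEK inhibitor PD0325901 and the GSK3 inhibitor CHIR99021.

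H3K9me3 is written by enzymes such as SETDB1, which the co-repressor TRIM28 brings to DNA bound by KRAB zinc finger proteins, and in embryonic stem cells this pathway covers many repeated sequences. Genes for KRAB zinc finger proteins occur in clusters, some of them on mouse chromosome 13, and differ between strains. H3K27ac marks active promoters and enhancers and is usually low where H3K9me3 is high. In a bulk profile, a mark on fewer cells and less of the mark in each cell cannot be told apart.

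Total counts in regions were 1538145 to 2185977 per repeated H3K9me3 library and 1487862 to 2559262 per separate line. For H3K27ac they were 8735674 to 11543469 and 15444270 to 18272793. Among the separate lines, H3K9me3 depth differed by strain, at 1487862 to 1687002 counts in B6 and 1981703 to 2559262 in D2. In both marks, replicate 1 of D2-13B6 stood apart from the other replicates of that line, with a chi-square per degree of freedom of 2.455 and 2.467 for H3K9me3 against 1.211 between replicates 2 and 3. The H3K27ac start sites of 8 embryonic stem cell markers had median levels of 113 to 127 CPM in the 4 lines, and the lowest marker level was 49.7 CPM. Start sites of 22 markers of endoderm, mesoderm, neural cells, trophoblast and feeder fibroblasts had list medians of 1.7 to 11.1 CPM and a highest value of 15.5 CPM. Calls at the start regions of the marker lists are given beside the H3K27ac results.

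The 61 regions lie on 18 chromosomes and form only 2 neighbouring pairs within 1 kb of each other. Per GENCODE M21 on GRCm38, 24 lie in introns (39.3%) and 20 outside genes (32.8%). Another 9 lie over coding exons, 2 over untranslated exons and 6 over exons annotated as neither. The 6 include an exon of the protein-coding gene Cwf19l2. Of 14007 regions off chromosomes 13, X and Y with the same minimum of 8 CPM in B6-13D2 and D2, 21.1% lie in introns and 49.3% outside genes. Median widths were 947 bp for the 61 regions and 1021 bp for the regions of like level. Median GC content was 50.6% and 50.9%, and bases in lower case in the reference, which marks repeats, made up a median of 27% and 36.8%. The lists of 36 heterochromatin pathway genes, 50 imprinted, 18 naive pluripotency, 21 cleavage-stage, 20 early lineage and 23 germline genes gave 1 gene with a selected region within 20 kb. It was Sycp1, a synaptonemal complex component, 6.18 kb from chr3:102812045-102812321. Of the 14007 regions of like level, 29 lay within 20 kb of a germline gene and 13 to 41 of a gene of each of the other lists.

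What the selection did not use is DNA sequence, and 20 of the 61 regions proved to share sequence with one another over at least 200 bp at 80% identity or more. In 15 regions (24.6%) the shared part was a tandemly repeated unit, 199 bp long at the median and 199 to 208 bp in the 14 regions that hold adjacent copies. Alignments between these regions reached 650 bp, with identities of 84.4% to 96.9%. Matches to the unit occurred in 1173 of the 14007 regions of like level (8.37%), in 2872 of all 248336 regions (1.16%) and in 0 of 17 regions found by the mirror rule, which asks for more H3K9me3 in B6 and D2-13B6. A run of 20 bases was identical in all 15, and it is present in 793 of the regions of like level (5.66%). Complete copies from 4 regions are shown from that run onward because they let the repeated unit be compared between chromosomes. The run is in capitals, and all sequences are from GRCm38, 5′ to 3′, on the strand named.
chr14:120649378-120649576, plus strand, non-coding gene Gm49008, intron: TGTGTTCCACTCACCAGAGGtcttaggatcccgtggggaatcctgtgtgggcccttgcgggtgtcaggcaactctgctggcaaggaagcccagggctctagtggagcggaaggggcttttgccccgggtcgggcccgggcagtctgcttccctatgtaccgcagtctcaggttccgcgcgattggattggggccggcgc
chr6:14546568-14546766, minus strand, intergenic: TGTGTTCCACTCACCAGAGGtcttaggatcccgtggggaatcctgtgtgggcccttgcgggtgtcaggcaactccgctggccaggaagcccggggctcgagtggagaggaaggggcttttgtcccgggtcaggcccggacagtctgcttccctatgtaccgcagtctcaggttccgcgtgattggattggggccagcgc
chr4:50524779-50524977, plus strand, intergenic: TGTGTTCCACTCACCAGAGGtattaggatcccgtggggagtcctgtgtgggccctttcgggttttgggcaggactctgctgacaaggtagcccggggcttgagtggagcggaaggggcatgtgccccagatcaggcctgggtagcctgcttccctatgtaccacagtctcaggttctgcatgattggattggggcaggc
chr11:47794244-47794442, minus strand, Sgcd intron: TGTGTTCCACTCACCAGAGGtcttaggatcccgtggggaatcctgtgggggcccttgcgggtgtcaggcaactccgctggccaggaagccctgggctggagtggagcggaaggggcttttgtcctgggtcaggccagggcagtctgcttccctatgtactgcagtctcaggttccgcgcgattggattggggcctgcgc

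A second shared sequence joined 5 regions, with alignments of up to 905 bp and identities of 87.7% to 95.8%. These are chr6:123818257-123819191 in an untranslated exon of the vomeronasal receptor gene Vmn2r24, chr6:149471111-149472212 in an intron of the dynein adaptor gene Bicd1, chr7:15848989-15851080 at 9.31 kb from the oocyte homeobox gene Obox6, and the neighbours chr14:27688165-27689179 and chr14:27689228-27689717 in an intron of Erc2, a presynaptic scaffold gene. The sequence was found in 52 of all regions, 32 of them among the regions of like level (0.228%). A run of 35 bases is identical in 4 of the 5 and occurs in 7 of the 248336 regions. It is shown from the copy near Obox6 as the part that these regions have exactly in common.
chr7:15850087-15850121, plus strand: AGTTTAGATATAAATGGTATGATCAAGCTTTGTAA

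The other 41 regions aligned to no other selected region by this criterion. The most widely shared exact run of 12 bases among them was an A tract found in 8 of the 41 (19.5%) and in 5.68% of the regions of like level. As an example of these regions, the centre of chr11:21256212-21257208 in an intron of Vps54 is shown because its H3K9me3 difference between the separate lines was the largest of the 61. It holds that A tract on the opposite strand, and no base is in capitals, as it aligned to no other selected region.
chr11:21256610-21256809, plus strand: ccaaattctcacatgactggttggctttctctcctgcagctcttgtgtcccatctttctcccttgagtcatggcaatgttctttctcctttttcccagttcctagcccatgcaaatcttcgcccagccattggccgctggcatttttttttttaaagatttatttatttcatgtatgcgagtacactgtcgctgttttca

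In the repeated libraries, the median H3K9me3 level over the 61 regions was 2.98, 3.15 and 3.57 CPM in the B6 libraries and 3.25, 3.9 and 4.12 CPM in the D2-13B6 libraries. It was 14.7 and 16.5 CPM in B6-13D2 and 14.6 and 13.1 CPM in D2. Line means ran from 0.511 to 9.35 CPM in B6, 0.837 to 9.43 in D2-13B6, 8.27 to 36.4 in B6-13D2 and 8.0 to 40.3 in D2. The low and the high pair of lines follow from the selection. The highest region was that near Obox6, with 9.94, 9.45 and 8.67 CPM in B6, 37.8 and 34.9 in B6-13D2, 43.8 and 36.7 in D2, and 5.85, 9.26 and 9.15 in D2-13B6. At the Vps54 intron, levels were 2.98, 1.58 and 1.02 CPM in B6, 28.9 and 31.6 in B6-13D2, 22.9 and 14.7 in D2, and 3.25, 2.92 and 2.29 in D2-13B6. The smaller of the ratios was 2.5027 at chr4:50524549-50525208, 2.5061 at chr1:88612430-88613778 and 2.5203 in Gad1, just inside the limit. Just outside it were an Arid5b intron at 2.4957, chr9:39531281-39531910 at 2.4954 and a Zbtb10 intron at 2.4952. Leaving replicate 1 of D2-13B6 out of the means gave 58 regions by the same rule, 49 of them among the 61. The 2 D2 libraries mattered more. Without D2 replicate 1 the rule gave 48 regions, 38 of them among the 61, and without D2 replicate 2 it gave 79, with 54 among the 61.

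**Figure D1:**
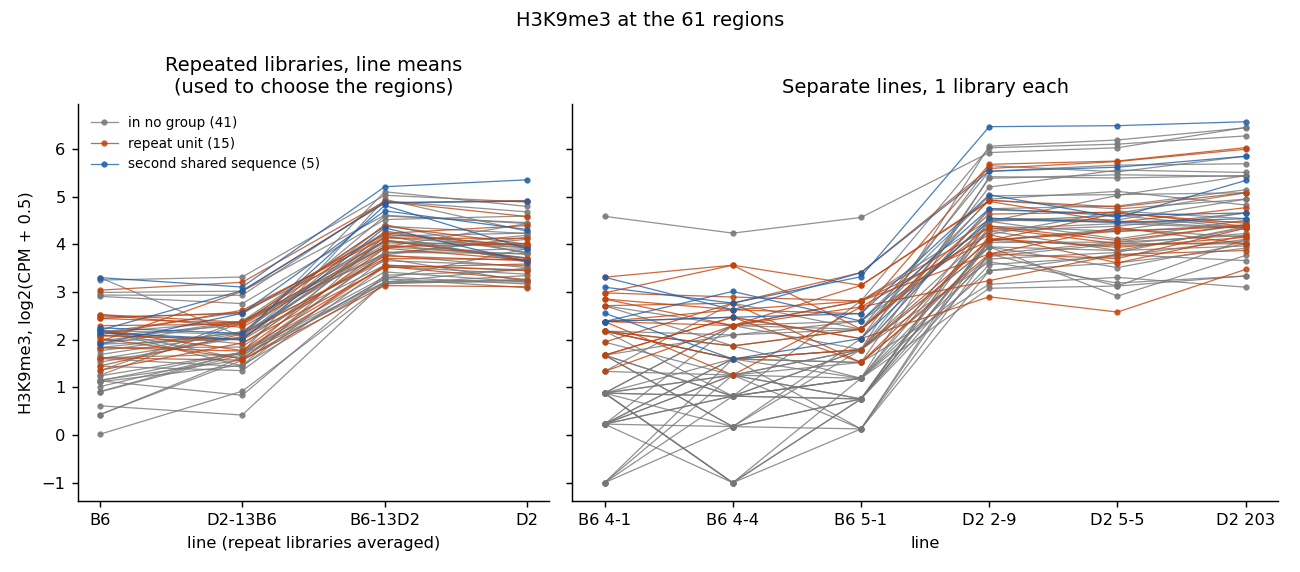
H3K9me3 level on a log2(CPM + 0.5) scale at each of the 61 regions (1 line per region), coloured by shared sequence. Left, means of the repeated libraries, which chose the regions; right, the 6 separate lines with 1 library each, in which every D2 line was above every B6 line at 61 of 61 regions.

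Whether the same regions differ between the strains in libraries that the selection did not use was tested in the 6 separate lines. All 61 regions passed the filter on low counts, and 60 had higher H3K9me3 in D2 than in B6, with 0 lower, by edgeR's quasi-likelihood test at a Benjamini-Hochberg adjusted p under 0.05 over all regions. Of the 44797 regions tested, 17.3% were higher and 17.4% lower in D2 (7728 and 7797 regions). With library totals in place of TMM scaling these were 9775 and 6127, and 61 of the 61 were called higher. Regions low in B6 pass the filter through the D2 lines, in which they are high. With no filter, 60 of the 61 were called higher, and with a minimum mean of 20 counts 44 of the 44 tested. The median log2 fold change of the 61 was 2.83, and values ran from 0.89 to 5.02. Median levels were 2.69, 2.52 and 2.96 CPM in the B6 lines 4-1, 4-4 and 5-1 and 20.3, 21.1 and 20.7 CPM in the D2 lines 2-9, 5-5 and 203. At each of the 61 regions every D2 line was above every B6 line, against 25.1% of all tested regions. Without B6 5-1 and D2 5-5, the lines shared with the selection, the count was again 60. The exception was chr3:102812045-102812321 near Sycp1, with 2.69, 5.04 and 3.56 CPM in B6 and 6.95, 5.47 and 10.6 CPM in D2 (log2 fold change 0.89, SE 0.40, adjusted p = 0.078). Without D2 line 5-5 this region was also called, at 1.14.

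The largest differences were in regions without a shared sequence. At the intron of Vps54, a subunit of a complex that tethers vesicles at the Golgi, H3K9me3 was 2.69, 0.63 and 2.96 CPM in the B6 lines and 66.0, 72.3 and 86.3 CPM in the D2 lines. The groups were far apart, with a log2 fold change of 5.02 (SE 0.29, adjusted p = 4.4e-17 by edgeR). An intron of Clybl, a mitochondrial enzyme gene, at chr14:122300139-122300781 had 0.0, 0.63 and 1.19 CPM in B6 and 22.3, 21.5 and 21.7 CPM in D2 (4.89, SE 0.45). Introns of Trnp1 (4.6) and of Srebf2, the sterol-regulated transcription factor gene (4.38), and exons of Afap1l1 (4.54) and Fam91a1 (4.51) were also among the 8 regions with the largest values. The other 2 were intergenic, at chr1:88612430-88613778 (4.52) and chr1:134053150-134053701 (4.44). Fitted values this large rest on B6 counts near 0 and depend on the prior count.

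By sequence, the median log2 fold change in the separate lines was 1.79 for the 15 regions with the repeat unit, of which 14 were called higher. It was 2.49 for the 5 with the second shared sequence (5 of 5 called) and 3.38 for the other 41 (41 of 41). Median levels in these groups were 5.63, 5.67 and 2.07 CPM in B6 and 18.4, 31.7 and 20.3 CPM in D2, so B6 was lowest in the regions without shared sequence.

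H3K27ac, the second mark, was counted over the same regions in the repeated libraries. Its median over the 61 regions was lower in the lines with the D2 segment, and single regions differed. The median was 3.67 and 3.54 CPM in the 2 B6 samples and 3.43 and 2.52 CPM in the 2 D2-13B6 samples, against 1.2 and 1.36 CPM in B6-13D2 and 1.3 and 1.72 CPM in D2. Each sample median of the lines with the B6 segment was above each of the lines with the D2 segment. Over all regions, the sample medians lay between 0.856 and 1.15 CPM. Markers of feeder fibroblasts moved with the segment in the other direction. All 5 (Col1a1, Col1a2, Thy1, Twist1 and Prrx1) had a higher mean at their starts in B6-13D2 than in B6 and in D2 than in D2-13B6, and none was at 0. Their summed level was 15.3 to 20.1 CPM in B6, 27.2 to 32.2 in B6-13D2, 44.5 to 47.3 in D2 and 24.6 to 42.8 in D2-13B6. Of their 11 start regions, 4 were called higher on the B6 background, 0 on the D2 background and 6 in the averaged contrast, with 0 lower in each, by edgeR. Trophoblast markers summed to 21.9 to 28.1 CPM in B6, 36.2 to 39.2 in B6-13D2, 37.2 to 39.5 in D2 and 36 to 39.8 in D2-13B6. Of their 8 start regions, 3 were higher on the B6 background, 1 was lower on the D2 background and 2 were higher in the averaged contrast. Of 5 primitive endoderm markers, 4 had a lower mean with the D2 segment on each background, and 1 of their 6 regions was called lower on the B6 background and 0 in the averaged contrast. Of 8 neural marker regions, 1 was higher on the B6 background and 0 in the averaged contrast. Of 12 embryonic stem cell marker regions tested, 1 was higher on the B6 background and 1 in the averaged contrast, and the 4 mesoderm regions had 0 calls. The part of these cell type markers in the changes at the 61 regions was not tested.

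Of the 61 regions, 58 passed the filter on low counts. On the B6 background, H3K27ac was lower in B6-13D2 than in B6 at 30 and higher at 2, where 5.4% of the 192158 regions tested were lower and 7.6% higher. On the D2 background, it was lower in D2 than in D2-13B6 at 28 and higher at 0, against 5.24% lower and 1.44% higher of all regions. Median log2 fold changes of the 58 were -0.945 and -0.917, and 22 regions were lower in each background on its own, as were 1.69% of all regions tested. With library totals in place of TMM scaling, the split of all regions on the B6 background turned from 14601 higher and 10372 lower to 10664 higher and 17013 lower, and 35 of the 58 were then lower and 2 higher. DESeq2 called 14 lower and 2 higher on the B6 background. Leaving out replicates 1 and 3 of B6-13D2, which form 1 sample, left 19 lower on the B6 background, and leaving out replicates 1 and 3 of D2 left 17 on the D2 background. Without replicate 1 of D2-13B6 these counts were 32 and 29.

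Averaged over the 2 backgrounds, contrasts that share no library, 33 of the 58 regions had lower H3K27ac and 1 had higher, by edgeR with adjustment over all regions. The background was 6.4% lower and 5.27% higher. The median log2 fold change was -0.619 against -0.02 for all regions tested. Without any filter on low counts, 33 of the 61 were lower and 1 higher. The 3 regions below the filter were chr4:6221996-6222442, chr7:78566603-78567103 in Ntrk3 and chr16:92511659-92512170 in Clic6. Among the 13629 tested regions of like H3K9me3 level outside the 61, 20.6% were lower and 6.91% higher.

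**Figure D2:**
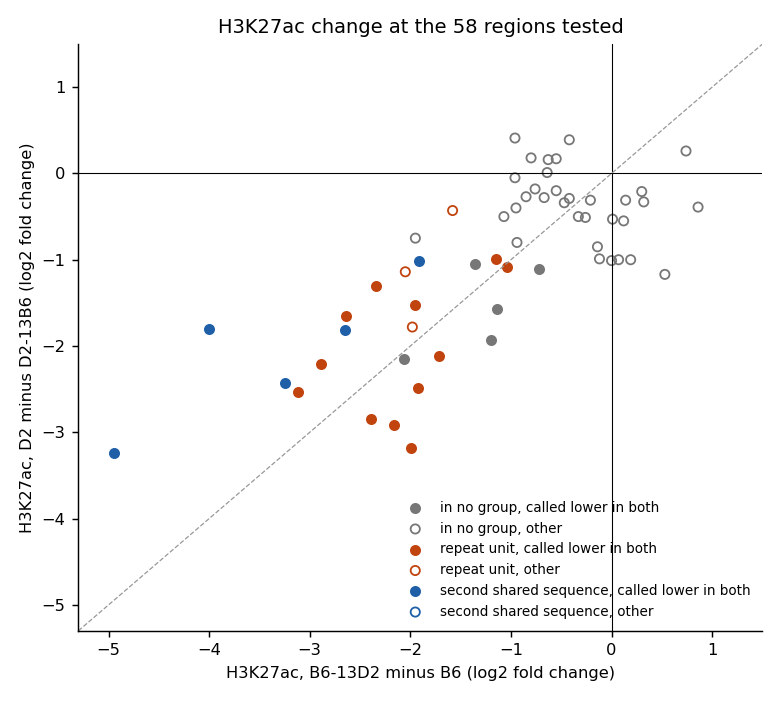
Log2 fold change of H3K27ac with the D2 segment on the B6 background (horizontal) and on the D2 background (vertical) for the 58 regions tested, coloured by shared sequence. Filled points are the 22 regions called lower in each background; the dashed line marks equal change.

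The H3K27ac changes are given by sequence group, and the groups overlap. No test of the difference between groups was run. All 15 regions with the repeat unit were lower in the averaged contrast (median -1.92, range -2.828 to -1.004), 15 on the B6 and 12 on the D2 background. DESeq2 called 6 of these 15 lower on the B6 and 11 on the D2 background. All 5 with the second shared sequence were lower in the averaged contrast and on each background (median -2.84). Of the 38 tested regions without shared sequence, 13 were lower (34.2%) and 1 higher, with a median of -0.405, and 10 were lower and 2 higher on the B6 and 11 lower and 0 higher on the D2 background. With DESeq2, 3 of the 38 were lower and 2 higher on the B6 background, and 8 lower and 0 higher on the D2 background. Across the 58 regions the changes on the 2 backgrounds had a Pearson r of 0.73 and a Spearman rho of 0.67. Over the 38 regions without shared sequence these were 0.27 and 0.07. Regions are not independent replicates, and all of these values come from the same 12 libraries. The H3K9me3 change in the separate lines and the averaged H3K27ac change had an r of 0.47 over the 58 and of 0.02 over the 38.

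The deepest loss of H3K27ac was near Obox6, at chr7:15848989-15851080, which holds the second shared sequence printed above. It had 42.8 and 45.2 CPM in B6 and 34.8 and 29.8 CPM in D2-13B6, but 1.2 and 1.46 CPM in B6-13D2 and 3.11 and 4.12 CPM in D2. The samples with the D2 segment were all far below the others. The log2 fold change was -4.95 on the B6 background, -3.24 on the D2 background and -4.1 on average (SE 0.13, adjusted p = 1.8e-28 by edgeR). In the separate lines its H3K9me3 was 8.07, 6.3 and 9.48 CPM in B6 and 87.8, 89.1 and 94.4 CPM in D2 (3.41, SE 0.21).

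In the Bicd1 intron, H3K27ac was 12.7 and 12.7 CPM in B6, 0.711 and 0.728 in B6-13D2, 0.778 and 0.801 in D2, and 3.92 and 1.91 in D2-13B6. The D2-13B6 samples were low here but still above both lines with the D2 segment, and the averaged log2 fold change was -2.9 (SE 0.22, adjusted p = 5.1e-14 by edgeR). The shorter of the Erc2 regions, chr14:27689228-27689717, had 8.65 and 10.0 CPM in B6, 0.711 and 1.18 in B6-13D2, 1.09 and 2.63 in D2, and 9.21 and 7.96 in D2-13B6 (-2.84, SE 0.19). Its neighbour at chr14:27688165-27689179 fell by 2.24 on the log2 scale, with 22.3 and 19.8 CPM in D2-13B6 and 6.54 and 5.38 CPM in D2.

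Among the regions with the repeat unit, chr14:120649165-120649914, the source of the first unit printed above, changed most. H3K27ac was 4.0 and 3.54 CPM in B6, 0.311 and 0.546 in B6-13D2, 0.726 and 1.03 in D2, and 5.29 and 4.28 in D2-13B6 (averaged log2 fold change -2.83, SE 0.23). The regions of the Sgcd intron (-2.62) and of chr4:50524549-50525208 (-2.58), whose units are also printed, followed, then chr1:184155054-184155465 (-2.55) and a Prkg1 intron (-2.54). Levels in these regions are low, at most 5.29 CPM in any of the 8 samples, and at these 5 regions 2 calls on a single background were lost when 1 sample was left out. Without replicates 1 and 3 of B6-13D2, the B6-background value at chr4:50524549-50525208 was -1.75 and not called. Without replicates 1 and 3 of D2, the D2-background value at chr1:184155054-184155465 was -2.3 and not called. The region with the unit that had the most H3K27ac was chr3:68525018-68527015 in an intron shared by Schip1 and Iqschfp, with 19.3 and 17.3 CPM in B6, 7.38 and 7.82 in B6-13D2, 8.2 and 8.24 in D2, and 18 and 14.1 in D2-13B6. Its groups did not overlap, and the fall was of like size on each background, -1.15 and -0.99.

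**Figure D3:**
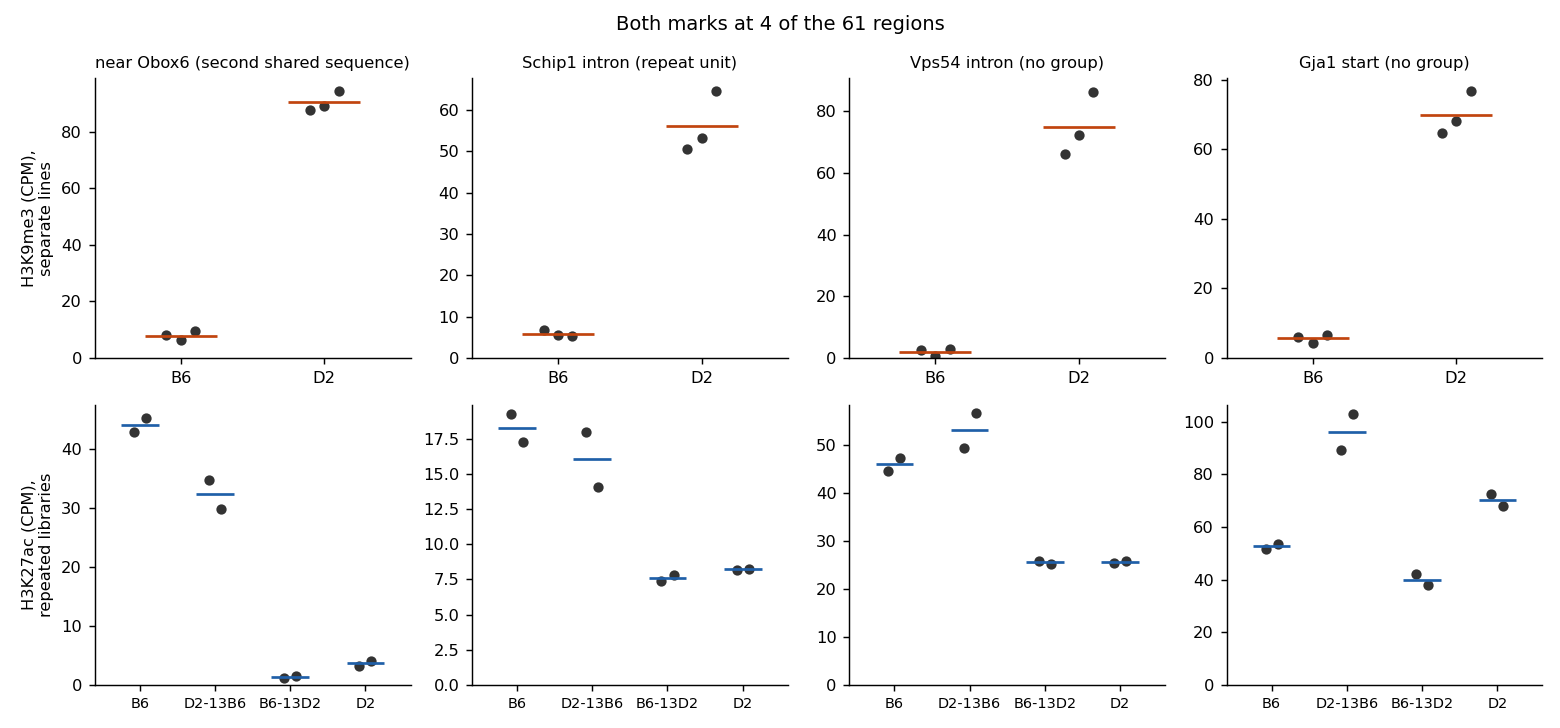
H3K9me3 in the separate lines (top, CPM) and H3K27ac in the repeated libraries (bottom, CPM) at 4 regions, each point a line or a sample and each bar the group mean. H3K9me3 is higher in D2 at all 4, and H3K27ac near Obox6 drops from 29.8 to 45.2 CPM without the D2 segment to 1.2 to 4.12 CPM with it, while at Gja1 the D2 samples (72.6 and 67.9 CPM) lie above the B6 samples.

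Without shared sequence, the Vps54 intron had a smaller change, with 44.6 and 47.4 CPM in B6, 25.9 and 25.2 in B6-13D2, 25.4 and 25.9 in D2, and 49.5 and 56.8 in D2-13B6. The averaged log2 fold change was -0.91 (SE 0.09, adjusted p = 3.9e-10 by edgeR). An exon of the non-coding gene Gm40614 at chr10:24131386-24132976 had 14.3 and 13.6 CPM in B6, 6.53 and 4.64 in B6-13D2, 4.15 and 4.81 in D2, and 11.4 and 13.6 in D2-13B6 (-1.35, SE 0.13). At both places the samples with the D2 segment were all below the others. The intron of Hs2st1, a heparan sulfate sulfotransferase gene, had H3K9me3 at 2.69, 3.78 and 4.74 CPM in B6 and 31.8, 32.4 and 33.3 CPM in D2 and an averaged H3K27ac log2 fold change of -0.01 (SE 0.15) in the repeated libraries. In the separate lines, which gave these H3K9me3 values, its H3K27ac was lower in D2 (-1.8, SE 0.17, adjusted p = 1.8e-13 by edgeR). These 2 examples, Gm40614 and Hs2st1, were chosen after their values were seen.

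Of the 61 regions, 8 (13.1%) overlap or lie within 1 kb of an annotated transcript start of a protein-coding gene, as do 19.9% of the regions of like level. H3K9me3 was called higher in the D2 lines at all 8, against 17.3% of all regions tested. H3K27ac was lower in the averaged contrast at 3 and higher at 1. Of all regions tested 6.4% were lower and 5.27% higher, and of those of like level outside the 61, 20.6% and 6.91%. At Cngb1, which encodes a cyclic nucleotide-gated channel subunit, it was 1.59 and 1.48 CPM in B6, 0.267 and 0.455 in B6-13D2, 0.363 and 0.687 in D2, and 2.74 and 1.61 in D2-13B6 (-2.1, SE 0.31, adjusted p = 2.1e-06 by edgeR). At Zbtb2, a zinc finger transcription factor gene, it was 27.3 and 26.7 CPM in B6 and 25.3 and 24.1 in B6-13D2, but 23.6 and 23.4 in D2 and 43.3 and 47.6 in D2-13B6, so the averaged value of -0.5 came from the D2 background (-1.01).

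At the start of Gja1, a gap junction gene, H3K9me3 rose from 6.05, 4.41 and 6.52 CPM in B6 lines to 64.5, 68.0 and 76.7 CPM in D2 lines. H3K27ac there was high in every line, at 51.7 and 53.6 CPM in B6, 42.0 and 38.0 in B6-13D2, 72.6 and 67.9 in D2, and 89.1 and 103.0 in D2-13B6. The averaged log2 fold change was -0.39 (SE 0.09, adjusted p = 0.0027 by edgeR). That call was lost without replicate 3 of B6 (-0.34), replicate 2 of B6-13D2 (-0.32) or replicate 2 of D2 (-0.33). Rcan1, a calcineurin inhibitor gene, was the region with higher H3K27ac, with 8.49 and 10.4 CPM in B6, 14.2 and 14.0 in B6-13D2, 12.7 and 11.3 in D2, and 7.25 and 11.6 in D2-13B6. Its D2 and D2-13B6 samples overlap, and the averaged value of 0.5 (SE 0.13, adjusted p = 0.0056) was not called without replicates 1 and 2 of B6 (0.39) or replicates 1 and 3 of D2 (0.45), nor with DESeq2 (0.52). The D2-background value of 0.26 turned to -0.04 without replicate 1 of D2-13B6. At the starts of Dut (-0.26), Fam91a1 (-0.26), Chrna5 (-0.19) and Kidins220 (-0.46) the averaged change did not pass the threshold. At Dut it passed under 6 alternatives, among them library totals (-0.3) and leaving out replicate 1 of D2-13B6 (-0.34), and at Kidins220 under 1, with every library its own sample (-0.45).

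Whether the H3K27ac change differed between the backgrounds was tested by the interaction, the B6-background change minus the D2-background change. It was called at 7 of the 58 regions, 4 with a deeper fall on the B6 background and 3 with the opposite sign, where 1.37% of all regions were called lower and 3.93% higher (2630 and 7546). With library totals these were 5924 and 5619 of all regions, and again 4 and 3 of the 58. The median interaction was -0.152. Of the 4, 3 hold the second shared sequence. They are Bicd1 at -2.19 (SE 0.51, adjusted p = 0.0055 by edgeR), the region near Obox6 at -1.71 (SE 0.30, adjusted p = 0.0002) and the longer Erc2 region at -0.83. None of the 15 regions with the repeat unit was called. Without replicate 1 of D2-13B6 the count was 14, and without replicates 1 and 3 of D2 it was 4.

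In the separate lines, H3K27ac was counted over another list of regions with another antibody, so only the direction can be set beside the repeated libraries. The contrasts also differ. The separate lines compare whole D2 and B6 genomes, whereas the averaged contrast compares the segment within each background. A like or opposite direction is therefore a description and not a repeat of the same comparison. The list covers 40 of the 61 regions with 38 of its own, so some selected regions share a value. Some of its regions, such as those over Vps54 and Gja1, are far wider than the selected ones. Others cover a part only, 37.2% at chr8:43148539-43150740. At 37 of the 40, H3K27ac was lower in D2 than in B6, and at 0 higher, where 25% of the 96291 regions tested were lower and 24.3% higher by edgeR. These 37 correspond to 35 distinct regions of the list. The median log2 fold change was -1.2. Median levels were 10.3, 11 and 10.7 CPM in the B6 lines and 3.93, 4.35 and 4.45 CPM in the D2 lines, so the strains did not overlap. Of the 24 regions that were lower in the averaged contrast and covered by this list, 22 were lower here, as were 15 that had not been called there. One of these 15 is the Hs2st1 intron, with 8.37, 9.0 and 8.76 CPM in B6 and 1.34, 2.85 and 3.1 CPM in D2 (-1.8, SE 0.17). In the repeated libraries its log2 fold change was 0.32 (SE 0.21) on the B6 and -0.33 (SE 0.20) on the D2 background, neither past the threshold. Rcan1 was lower in D2 here (-0.49, SE 0.11), opposite to its averaged value in the repeated libraries. Without B6 5-1 and D2 5-5, 35 regions were lower.

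Because the repeat unit is also found outside the 61, its other occurrences off chromosomes 13, X and Y were examined. Of 2478 such regions, 2245 passed the filter, and 1973 of these (87.9%) had lower H3K27ac in the averaged contrast and 0 higher, with a median log2 fold change of -1.91. On the B6 background 53.0% were lower and on the D2 background 78.3%, and with DESeq2 these were 19.8% and 58.8%. Low regions pass the filter through the libraries in which they are high. With no filter, 2009 of 2478 were lower, and with a minimum mean of 20 counts 1080 of 1096. In regions of like H3K9me3 level that lack the unit and are not among the 61, 14.0% of 12489 were lower and 7.54% higher. The unit regions were grouped after their values had been seen, and how reads that map to several copies were counted is not given in the sources used here.

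The H3K9me3 levels of these other unit regions in the repeated libraries are a description only, since any unit region that met the rule was selected and the others fall outside it by construction. Library medians were 8.95, 8.4 and 8.67 CPM in B6, 9.93 and 10.9 in B6-13D2, 8.9 and 7.33 in D2, and 3.9, 3.41 and 3.66 in D2-13B6, so only D2-13B6 was low. At the 15 selected regions with the unit, line medians were 3.78 CPM in B6, 14.9 in B6-13D2, 12.5 in D2 and 4.28 in D2-13B6. The median H3K27ac level of the other unit regions was 0.889 CPM in B6, 0.27 in B6-13D2, 0.575 in D2 and 2.65 in D2-13B6. In the separate lines, 435 of 2072 other unit regions (21.0%) had higher H3K9me3 in D2 and 121 (5.84%) lower.

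**Figure D4:**
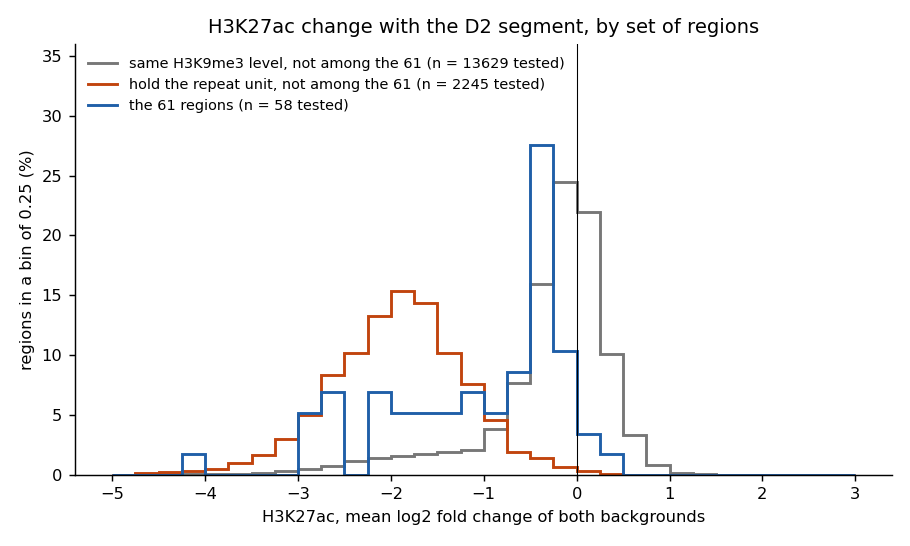
Distribution of the averaged H3K27ac log2 fold change with the D2 segment, as percent of regions in bins of 0.25, for the 58 tested regions of the 61, for 2245 other regions with the repeat unit and for 13629 other regions of like H3K9me3 level, some of which also hold the unit. The other unit regions have a median of -1.91, and the 58 regions range from -4.098 to 0.5 with a median of -0.619.

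The second shared sequence also occurs outside the 61. Of 35 such regions tested, 14 had lower H3K27ac in the averaged contrast (40.0%) and 1 higher, with a median of -0.231. Of all regions tested in this contrast, 6.4% were lower and 5.27% higher. Their median H3K9me3 was 10.7 CPM in B6, 14.2 in B6-13D2, 13.3 in D2 and 8.78 in D2-13B6. The 17 regions of the mirror rule, with H3K9me3 higher in the lines with the B6 segment, had higher H3K27ac with the D2 segment at 10 and lower at 0 in the averaged contrast (median 0.436). In the separate lines 15 of these 17 were tested, and H3K9me3 was lower in D2 at 15, as it was at 17.4% of all regions tested.

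H3K27ac at the starts of 36 genes of the H3K9me3 pathway was examined over 76 regions, of which 75 were tested. In the averaged contrast 1 was higher and 8 lower (1.33% and 10.7%), where 5.27% of all regions were higher and 6.4% lower. The balance depended on the fit, with 8 higher and 9 lower when every library was its own sample, 7 and 10 with the planned limit for summing, 2 and 12 with library totals and 1 and 4 with DESeq2. On the B6 background 4 were higher and 5 lower (5.33% and 6.67%), against 7.6% and 5.4% of all regions. On the D2 background 0 were higher and 4 lower (5.33%), against 1.44% and 5.24% of all regions. The largest change with a high level was at an internal start of Dnmt3a, a de novo DNA methyltransferase gene, at chr12:3889210-3893026, with 57 CPM in B6, 24.7 in B6-13D2, 22.2 in D2 and 74.5 in D2-13B6 (-1.43, SE 0.09, adjusted p = 8.8e-17 by edgeR). Lower values were also called at Smarcad1, a chromatin remodeller gene (-0.58), Dnmt3l (-0.37) and Cbx1 (-0.28), and a higher one at Atrx (0.56). Of the 8 lower regions, 4 belong to Dnmt3a and 2 to Smarcad1, so they come from 4 of the 36 genes. The Dnmt3l value came from the B6 background, with 16.3 CPM in B6 and 8.86 in B6-13D2 against 31 in D2 and 30.0 in D2-13B6. The genes for the co-repressor Trim28 and the methyltransferase Setdb1 had no region called in the averaged contrast. Start levels of Trim28 were 136, 123, 186 and 172 CPM in B6, B6-13D2, D2 and D2-13B6.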

How the data were processed

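H3K9me3 and H3K27ac were measured by ChIP-seq after formaldehyde fixation and micrococcal nuclease digestion, with 75 bp reads, per the labels' protocols. The deposited values are counts of reads per region, with no normalization. Per the submitters' processing notes, Trimmomatic 0.39, HISAT2 2.2.1, MACS 1.4.2, bedtools 2.9.2, edgeR and the genome mm10 (GRCm38) were used. How replicates were combined for peak calling and how multiply mapped reads were counted are not given in the sources used here. Of the columns, 2 matched no sample and were not used.

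The members and gene lists were chosen with earlier results of these data known, and the sequence groups after values were seen. Levels are CPM from column totals. H3K27ac antibodies differed between the series (abcam for separate lines, Cell Signaling for repeated libraries), so levels were not compared across them. Repeat H3K27ac libraries that agreed within sampling noise by a chi-square test (p of 0.05 or more, where another pair of the line differed) were summed, taking the closest pair. In B6 these were replicates 1 and 2. For B6-13D2 as well as D2 they were replicates 1 and 3, and D2-13B6 had replicates 2 and 3. In D2, replicates 2 and 3 also passed this test and were not summed. The planned limit on chi-square per degree of freedom lay above every pair of 3 of the lines and was kept as an alternative. This left 2 samples per line, which differ technically only.

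Regions were tested with edgeR 4.0.16 (R 4.3.3) by the quasi-likelihood F-test with TMM scaling and filterByExpr, two-sided, with Benjamini-Hochberg adjustment over all regions tested and a threshold of 0.05. All 4 repeated lines shared a fit, and DESeq2 1.42.0 was an alternative. Regions of the other H3K27ac list were matched by an overlap of at least 1 bp (bedtools 2.31.1). Sequences were compared with BLAST+ 2.17.0 (at least 200 bp and 80% identity, and 100 bp for the unit in other regions) on GRCm38, with starts read as counted from 0. Named regions were the 10 highest in H3K9me3, the 8 largest called changes in the separate lines and in averaged H3K27ac, those at protein-coding starts, the 5 largest interactions and those near listed genes. Regions outside this rule are named where a sentence says so, or only as examples of a count or sequence. P-values of the repeated series measure the spread between technical replicates. In the separate lines, same-numbered lines of the strains had correlated deviations of -0.0408 to -0.0127 for H3K9me3 and -0.0829 to 0.06 for H3K27ac. In the repeated libraries these were -0.0502 to 0.205 for H3K9me3, highest between D2 and D2-13B6 (0.205 and 0.123 for replicates 1 and 2), and -0.0897 to 0.0601 for H3K27ac. Not every pair exceeded 0.1, so the numbers were not taken to pair the samples.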

Additional observations from a re-analysis of the deposited data

Results flagged for a closer look

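The H3K27ac change with the D2 segment differed between the backgrounds, by the interaction term of the edgeR fit, at 7 of the 58 regions tested. Of the 58, 4 were lower and 3 higher (6.9% and 5.17%), against 1.37% and 3.93% of all regions. The value was -2.19 in the Bicd1 intron, -1.71 near Obox6, -1.2 at the pseudogene Gm14323 (chr2:177893032-177893458) and -0.83 at the longer Erc2 region. It was 1.26 at the non-coding gene Gm38414 (chr8:36153919-36156337), 1.19 at 4930535G08Rik and Gm33222 (chr1:36010132-36011562) and 1.01 at Zbtb2. At Gm38414, H3K27ac was 16.5 and 16 CPM in B6 and 27.1 and 26.9 in B6-13D2, but 7.57 and 9.39 in D2 and 12.2 and 9.37 in D2-13B6. H3K27ac was thus called higher with the D2 segment on the B6 background (0.86, adjusted p = 2e-05), while the D2-background value was -0.39 (adjusted p = 0.19). At 4930535G08Rik, the B6-background value was 0.19 and the D2-background value -1.0.

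Without 1 sample, some of these calls were lost. At Bicd1 this was so without replicates 1 and 3 of D2 (-2.15). Gm14323 lost its call in 5 of the 8 fits that left out a sample, those without replicate 3 of B6, either sample of B6-13D2 or either sample of D2, with values of -1.03 to -1.39, and with DESeq2 (-1.18). The Erc2 region lost its call in 6, those that left out a sample of B6, B6-13D2 or D2 (-0.58 to -0.95), and also with DESeq2 size factors (-0.78), no filter (-0.79) and DESeq2 (-0.77). Among the pathway genes, the interaction was called at 5 of the 75 regions tested, 4 higher and 1 lower (5.33% and 1.33%). These shares are near those of all regions, 3.93% higher and 1.37% lower. The values were 0.7 at the Dnmt3a start, -0.77 at Dnmt3l and 0.88, 0.72 and 0.67 at 3 regions of Atf7ip, the gene of a SETDB1 cofactor.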

How the results depend on the processing

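The number of regions selected depended most on the thresholds, at 16 with a minimum of 16 CPM, 145 with a ratio of 2 and 6 with a ratio of 4, and it ranged from 48 to 79 when 1 library was left out, lowest and highest without D2 replicate 1 and 2. Leaving out 1 sample at a time gave 60 to 61 regions called for H3K9me3 in the separate lines, 37 to 38 for H3K27ac there, 20 to 34 on the B6 background, 17 to 32 on the D2 background, 29 to 37 in the averaged contrast, 4 to 14 in the interaction, 5 to 10 at pathway genes and 1526 to 1957 at other regions with the unit. DESeq2 called 16 regions on the B6 background and 5 pathway regions, against 32 and 9 with edgeR. The interaction count rose from 7 to 13 with every library its own sample and to 11 with the planned limit for summing, used as an alternative after seeing the data. Pathway regions came to 14 with library totals, and to 17 with every library its own sample or that limit. A minimum mean of 20 counts left 1080 called unit regions of fewer tested. In these cases, other than the fewer regions or samples tested, the cause was not tested.

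By the correlations of their deviations, replicate numbers were not taken to pair the samples. With the replicate block, 60 regions were called for H3K9me3 and 37 for H3K27ac in separate lines. In the repeated libraries the block needed every library as its own sample. That fit called 35 and 32 regions on the B6 and D2 backgrounds, 35 in the averaged contrast, 12 in the interaction, 17 at pathway genes and 1854 at other unit regions, against 35, 32, 36, 13, 17 and 1860 without the block. Library totals placed the median log2 fold change of all regions at 0.16 for H3K9me3 in the separate lines, at -0.2002 for H3K27ac on the B6 background and -0.2106 in the interaction.

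Of the named values under alternatives, 1521 kept direction and call, 40 lost and 15 gained a call, and 10 uncalled values changed sign. These were chr1:88612430-88613778 averaged (-0.01 to 0.13 when 1 sample was left out, lowest without D2-13B6 replicate 1), Chrna5 averaged (0.25 without B6-13D2 replicates 1 and 3, 0.36 without D2-13B6 replicates 2 and 3, lowest -0.61), Rcan1 on the D2 background (-0.04 without D2-13B6 replicate 1, 0.75 and called without its replicates 2 and 3), and, in the separate lines, Dut H3K27ac (0.05 and 0.03 without D2 replicate 1 or 3, lowest -0.13) and Gja1 H3K27ac (-0.0032 with a minimum mean of 20 counts, -0.03 and -0.02 without B6 or D2 replicate 2, -0.01 without B6 5-1 and D2 5-5, highest 0.07).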
